A study of Mus musculus with 10 samples.

Results

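The genes of γ-aminobutyric acid (GABA) synthesis, breakdown and reception were followed in αTC1 cells, which were established from a mouse tumour of glucagon-producing islet α cells. The 8 genes were chosen by name, with earlier results of these data known. They were the glutamate decarboxylases Gad1 and Gad2, the breakdown enzymes Abat and Aldh5a1, and the GABA-B receptor subunits Gabbr1 and Gabbr2. The GABA-A receptor subunit Gabra4 and the receptor scaffold Gphn completed the set. All 8 were rows of the count table of 33212 genes, and 0 were absent from it. Polyadenylated RNA had been sequenced from 5 libraries of cells held for 48 h in 10 μM enzalutamide, an antiandrogen drug, and from 5 libraries held for 48 h in its solvent DMSO. The cells of both groups were the same line in low-glucose medium with fetal bovine serum, penicillin and streptomycin, and the labels name no genetic change. All libraries come from 1 tumour-derived line; they are labelled as biological replicates, but not as separate cultures, so the spread behind each p-value may be technical.

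GABA is made from glutamate by glutamate decarboxylase. GABA transaminase, the product of Abat, and succinic semialdehyde dehydrogenase, the product of Aldh5a1, turn it into succinate in mitochondria, a path called the GABA shunt. GABA acts on chloride channels assembled from several subunits, the GABA-A receptors, and on a G protein-coupled receptor, GABA-B, which needs both of its subunits to reach the cell surface and signal. In islets β cells are the best known source of GABA and α cells carry GABA-A receptors. Exposure to GABA, and binding of artemisinins to gephyrin, the product of Gphn, have been proposed to move α cells towards β cells, a proposal that other laboratories have disputed. Enzalutamide has also been reported to inhibit GABA-A receptors.

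The αTC1 cells held transcripts for the breakdown of GABA, for 1 GABA-B subunit and for gephyrin, but few or none for GABA synthesis, for the other GABA-B subunit or for Gabra4. After enzalutamide Aldh5a1 rose by 31.4%, Gabbr1 by 17.2% and Abat by 7.57%. Gad1 and Gphn did not pass the test, and Gad2, Gabbr2 and Gabra4 had no or too few counts to be tested. Of the 5 members that could be tested 3 were therefore higher and 0 lower, where 37.8% of the 14156 genes tested passed, 19.0% as higher and 18.8% as lower. In a test against a minimum change of 1.2-fold 0 of the 3 passed (edgeR adjusted p = 0.066 for Aldh5a1), where 926 of the 14156 genes tested did. That test does not measure the size of a rise. The log2 fold changes of Aldh5a1, Gabbr1 and Abat were 0.39, 0.23 and 0.11. The median absolute log2 fold change of all genes called, in either direction, was 0.246.

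The sequence upstream of 3 members is given because they show the extremes of the set, Gad2 without a count and Aldh5a1 and Gabbr1 with the clearest rises. The sequences are from RefSeq on GRCm38.p6 and run 5′ to 3′ on the gene's strand, ending at the annotated start of the gene. That of Gad2 is chr2:22622077-22622204 on the plus strand, that of Aldh5a1 chr13:24937662-24937911 on the minus strand, and that of Gabbr1 chr17:37045716-37045965 on the plus strand. Capitals mark the core of the element bound by REST, a repressor of neuronal genes, in Gad2, and the GC box GGGCGG in Gabbr1.
Gad2: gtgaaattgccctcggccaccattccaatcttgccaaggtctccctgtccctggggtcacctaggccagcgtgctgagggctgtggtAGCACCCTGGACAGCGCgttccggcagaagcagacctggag
Aldh5a1: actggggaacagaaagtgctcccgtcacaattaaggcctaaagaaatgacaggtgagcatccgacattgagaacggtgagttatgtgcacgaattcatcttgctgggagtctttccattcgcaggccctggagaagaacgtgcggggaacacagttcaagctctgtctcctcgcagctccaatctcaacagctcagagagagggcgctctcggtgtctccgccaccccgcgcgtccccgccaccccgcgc
Gabbr1: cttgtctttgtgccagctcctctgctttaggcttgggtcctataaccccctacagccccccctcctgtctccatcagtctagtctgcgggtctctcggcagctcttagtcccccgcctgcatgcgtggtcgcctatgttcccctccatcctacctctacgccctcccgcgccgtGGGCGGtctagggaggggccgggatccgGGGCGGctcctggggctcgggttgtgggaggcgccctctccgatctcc
Over the 250 bases before the RefSeq start, on both strands, the 17 letters of the REST core were found in 4 of 32851 mouse promoters (0.0122%), and the letters were chosen after the Gad2 sequence had been seen. The genes of the other 3 were Gria2, a glutamate receptor subunit with between 7834 and 10161 counts per library, Hrh3, a histamine receptor with 0 counts in all, and Lhx3, a transcription factor with between 0 and 19 counts. The match thus stood before a gene with many counts as well as before genes with none. The GC box was found in 32.7% of promoters, with 2 matches each in Gabbr1, Gabbr2 and Gabra4, 1 each in Gad1 and Gphn, and 0 in Aldh5a1 and Gad2. The letters TGATGNAA, bound by ATF4 with C/EBP factors, were in 3.45% of promoters, and TGACGTCA, bound by CREB, in 1.55%. Neither of these motifs was found before any of the 7 members in the promoter table, which had no entry for Abat.

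**Figure D1:**
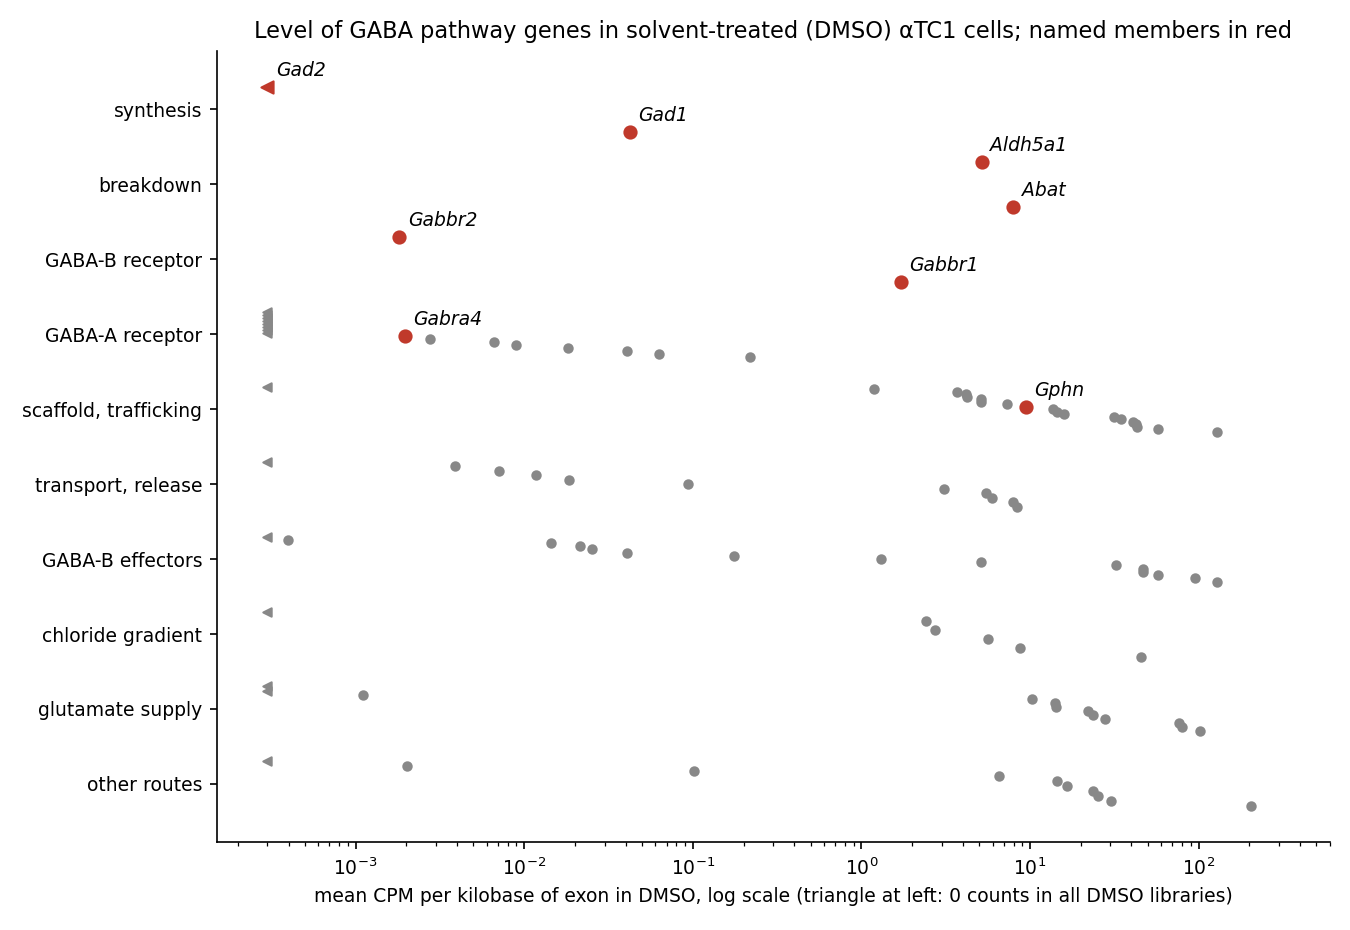
Mean level in the 5 DMSO libraries of GABA pathway genes with a known exon length, a few left out, in CPM per kilobase of exon on a log axis, by role; red points are the 8 members, grey points the other genes, and triangles at the left edge are genes with 0 counts in all DMSO libraries. Gphn, Abat, Aldh5a1 and Gabbr1 lie between 1.71 and 9.45, Gad1 at 0.0424, and Gabra4 and Gabbr2 below 0.002.

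Per kilobase of exon the members of the set fell into an expressed and a near-silent part, as the plot of levels by role shows. In DMSO the level was 9.45 ± 0.483 CPM per kilobase for Gphn, 7.95 ± 0.203 for Abat, 5.18 ± 0.466 for Aldh5a1 and 1.71 ± 0.0654 for Gabbr1 (SD, n = 5 each). CPM are a gene's counts after libraries were brought to one size. Among tested genes with a known length, 61.4% had a lower level per kilobase than Gphn in DMSO, 56.8% than Abat, 46.6% than Aldh5a1 and 28.8% than Gabbr1. The next member, Gad1, was at 0.0424 ± 0.00583 CPM per kilobase, above only 1.74% of tested genes. Gabra4 at 0.00195 and Gabbr2 at 0.00182 CPM per kilobase rested on 4 counts each in DMSO and cannot be ordered, and Gad2 had no count. In enzalutamide the order of the 5 highest was the same, but the values of Gphn (8.77 to 9.56 CPM per kilobase) and Abat (8.12 to 9.06) overlapped, whereas in DMSO they did not (8.78 to 9.94 and 7.65 to 8.14).

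Transcripts for GABA synthesis were close to the limit of detection in both groups. Gad1 (ENSMUSG00000070880; chromosome 2, 70553072 to 70602014 of GRCm38) encodes the decarboxylase isoform found throughout neurons. It had 20, 20, 18, 26 and 23 counts in DMSO libraries 1 to 5 and 8, 12, 21, 31 and 15 counts in enzalutamide libraries 1 to 5. The highest and the lowest value were both in the enzalutamide group, so that the groups overlapped. The DMSO mean was 0.324 ± 0.0446 CPM and the enzalutamide mean 0.263 ± 0.13 CPM (SD, n = 5 each). The log2 fold change of enzalutamide against DMSO was -0.30 (SE 0.402), and it did not pass edgeR's quasi-likelihood test (adjusted p = 0.612, Benjamini-Hochberg, over all genes tested). Its 95% interval ran from 0.472-fold to 1.40-fold, so that neither a fall nor a rise within these bounds can be excluded.

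Gad2 (ENSMUSG00000026787; chromosome 2, 22622205 to 22693874) encodes the decarboxylase isoform associated with nerve terminals and known as an autoantigen in type I diabetes. It had 0 counts in all 10 libraries. The limit that a count of 0 allows, 3 counts, was between 0.0439 and 0.0497 CPM per library, a limit that covers counting error only. Relative to Abat and per kilobase of exon, Gad1 was between 156-fold and 227-fold lower in the DMSO libraries and between 149-fold and 469-fold lower in the enzalutamide libraries. With 3 counts per library as the limit for Gad2, Abat was at least 958-fold higher than Gad2 in every library. The cofactor of both decarboxylases and of GABA transaminase is pyridoxal phosphate, and Pdxk and Pdxp, of its metabolism, did not pass the test (log2 fold changes of -0.08 and 0.04, adjusted p = 0.0827 and 0.835, edgeR).

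Both breakdown enzymes rose, Aldh5a1 more than Abat. Aldh5a1 (ENSMUSG00000035936; chromosome 13, 24907579 to 24937661) is the dehydrogenase that passes the carbon of GABA into the citric acid cycle. It was at 32.3, 26.4, 28.1, 31.7 and 27.6 CPM in DMSO libraries 1 to 5 and at 39.3, 37.2, 40.6, 37.1 and 37.9 CPM in enzalutamide libraries 1 to 5. Every enzalutamide value lay above every DMSO value, which held for 13.1% of the genes tested in this direction. The mean went from 29.2 ± 2.63 to 38.4 ± 1.5 CPM (log2 fold change 0.39, SE 0.0581, edgeR adjusted p = 3.9e-05), which is a 1.31-fold rise with a 95% interval of 1.21 to 1.42. Its log2 fold change was higher than that of 90.0% of genes tested. The call held without any 1 library, at an adjusted p of up to 0.000227. Exons of a pair of noncoding genes on the opposite strand cover 14.1% and 3.6% of the exon length of Aldh5a1. Those genes averaged 30.5 and 32.5 counts per library. The strand setting of the counting is not known here, and the part of reads from the opposite strand in the values of Aldh5a1 was not tested.

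Abat (ENSMUSG00000057880; chromosome 16, 8513429 to 8621568) is the transaminase that starts the breakdown of GABA. It was at 59.3, 63.1, 61.6, 60.9 and 63.0 CPM in DMSO and at 62.9, 65.4, 65.6, 70.2 and 66.9 CPM in enzalutamide, in the order of the library numbers. Enzalutamide library 1 lay below the highest DMSO values, and the other 4 lay above all of them. The mean went from 61.6 ± 1.58 to 66.2 ± 2.64 CPM (log2 fold change 0.11, SE 0.0383, edgeR adjusted p = 0.0386). The rise of Abat was small and its call rested on single libraries. It did not pass when DMSO library 1, 3 or 4, or enzalutamide library 3, 4 or 5, was left out, with an adjusted p of up to 0.113, and it did not pass when per-library trends with GC content and length were removed (log2 fold change 0.08, adjusted p = 0.0707).

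**Figure D2:**
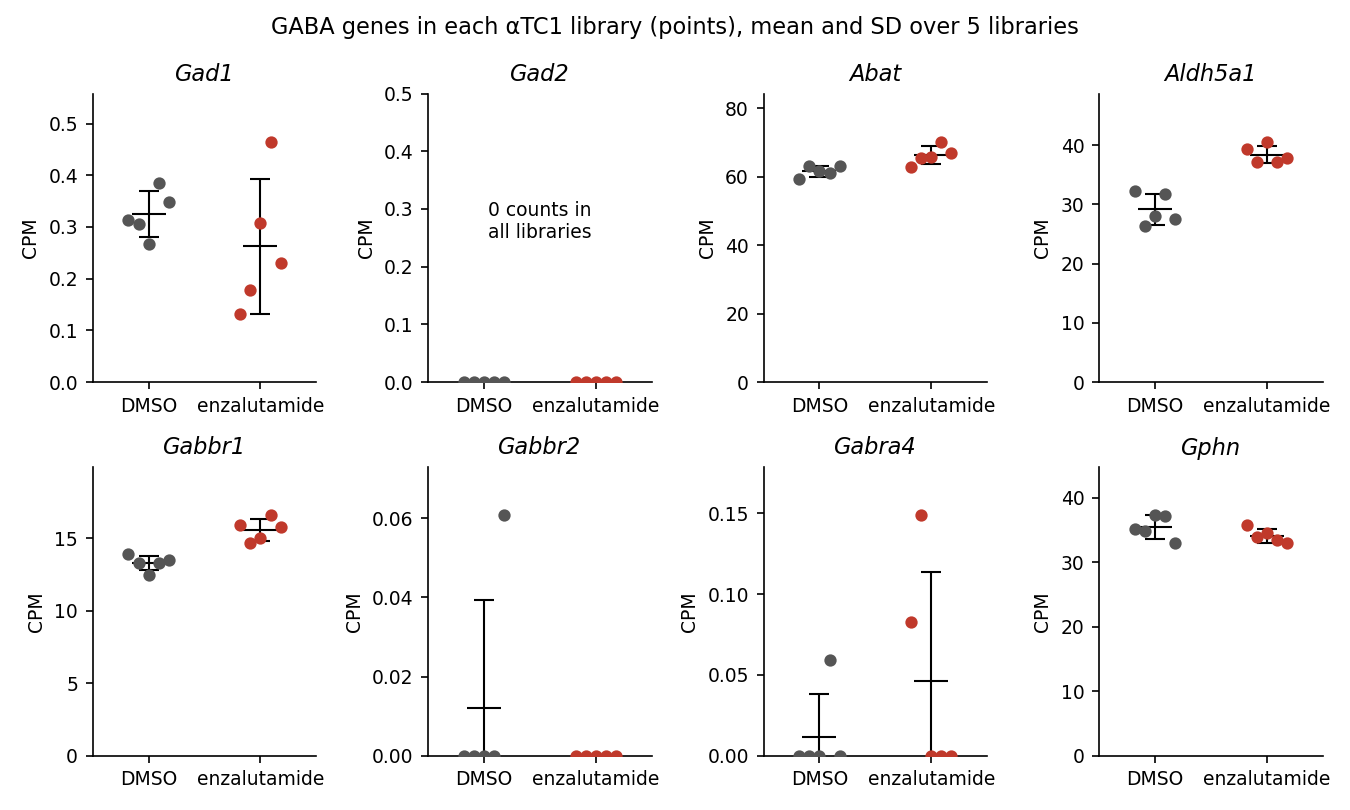
CPM of each member in every library, with points for the 5 DMSO (grey) and 5 enzalutamide (red) libraries in order of replicate number, and bars for the mean and SD; each panel has its own linear axis from 0. The groups separate for Aldh5a1 and Gabbr1, touch for Abat, and overlap for Gad1 and Gphn, while Gad2, Gabbr2 and Gabra4 have counts in 0, 1 and 3 of 10 libraries.

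The ratio of the breakdown enzymes within a library does not depend on how libraries are scaled. Abat had 1.83, 2.39, 2.19, 1.92 and 2.28 times the counts of Aldh5a1 in DMSO libraries 1 to 5, and 1.6, 1.76, 1.62, 1.89 and 1.77 times in enzalutamide libraries 1 to 5. Enzalutamide library 4 was the only one above the lowest DMSO value. The mean ratio was 2.12 ± 0.237 in DMSO and 1.73 ± 0.121 in enzalutamide, a difference of -0.29 on the log2 scale (n = 5 per group; p = 0.0159 by a two-sided exact permutation test, where 0.00794 is the smallest that the design can give). It was the only ratio tested, since the ratios of Gad1 to Gad2 and of Gabbr1 to Gabbr2 could not be formed at a minimum of 10 counts in every library.

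**Figure D3:**
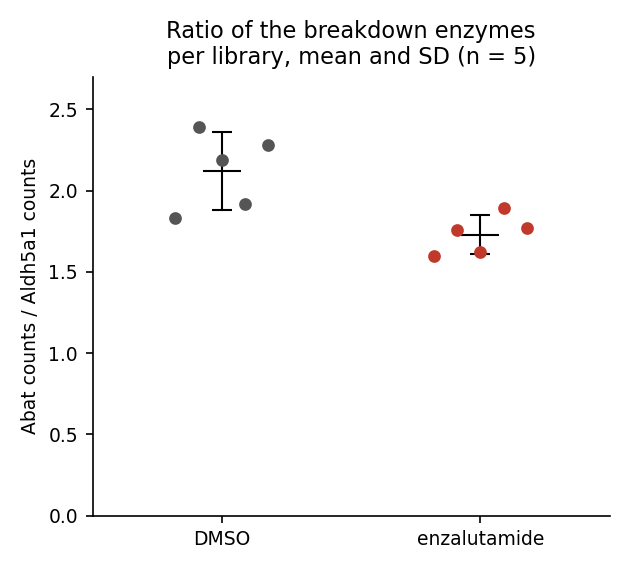
Counts of Abat divided by counts of Aldh5a1 in each of the 5 DMSO (grey) and 5 enzalutamide (red) libraries, on a linear axis from 0, with bars for the mean and SD. The ratio lies between 1.83 and 2.39 in DMSO and between 1.6 and 1.89 in enzalutamide.

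Of the GABA-B receptor αTC1 cells held transcripts of only the ligand-binding subunit above trace levels. Gabbr1 (ENSMUSG00000024462; chromosome 17, 37045966 to 37075067) encodes that subunit. It was at 13.9, 13.3, 12.5, 13.3 and 13.5 CPM in DMSO libraries 1 to 5 and at 15.9, 14.7, 15, 16.6 and 15.8 CPM in enzalutamide libraries 1 to 5. All enzalutamide values were above all DMSO values. The mean went from 13.3 ± 0.508 to 15.6 ± 0.754 CPM, a rise of 0.23 on the log2 scale (SE 0.0596, edgeR adjusted p = 0.00543). The 95% interval of the rise was 1.08-fold to 1.27-fold, and the call held without any 1 library at an adjusted p of up to 0.0175.

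Gabbr2 (ENSMUSG00000039809; chromosome 4, 46662305 to 46991873) encodes the subunit that carries the receptor to the surface and couples it to G proteins. It had 4 counts in DMSO library 5 and 0 in the other 9. Over the whole table the value 4 occurred 4047 times, beside 2832 times for 3 and 2236 times for 5, so a value of 4 need not stand for 4 reads. Per kilobase of exon Gabbr1 was 192-fold higher than Gabbr2 in DMSO library 5. In the other libraries, with the limit of 3 counts set for Gabbr2, it was at least 242-fold higher. The rise of Gabbr1 therefore took place in cells whose other subunit was at or under the limit of detection in both groups. Whether any receptor protein was present was not measured.

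Gabra4 (ENSMUSG00000029211; chromosome 5, 71569749 to 71658308), an α subunit of GABA-A receptors that in brain is found in receptors outside synapses, was also at trace level. It had 4 counts in DMSO library 4, 5 in enzalutamide library 1, 10 in enzalutamide library 2 and 0 elsewhere. These counts are too few to test, and 46 bases of its exons overlap those of Gabrb1 on the opposite strand. Among the other 18 subunit genes of GABA-A receptors 6 had 0 counts in every library and 8 had too few to test. Of the 4 that were tested 0 passed. Among them Gabrr2, a subunit best known from the retina, had a DMSO mean of 0.46 ± 0.123 CPM and an enzalutamide mean of 0.233 ± 0.153 CPM (adjusted p = 0.184), and Gabrd, found outside synapses in brain, was at 0.181 ± 0.0855 and 0.096 ± 0.0896 CPM (adjusted p = 0.37).

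Among the α subunit genes Gabra5 had 59 counts over the 10 libraries, beside the 19 of Gabra4, and Gabra2, Gabra3 and Gabra6 had 0. Gabrb1, a β subunit, had 1, 13, 18, 9 and 0 counts in DMSO libraries 1 to 5 and 0 in all enzalutamide libraries. It was removed by the filter on low counts, and in a fit without the filter it passed (edgeR adjusted p = 0.028), so that this call rests on the choice of filter.

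Gphn (ENSMUSG00000047454; chromosome 12, 78226379 to 78684772) encodes gephyrin, which anchors GABA-A and glycine receptors and also makes the molybdenum cofactor in all tissues. It was at 35.1, 34.8, 37.3, 37.1 and 32.9 CPM in DMSO libraries 1 to 5 and at 35.8, 33.9, 34.5, 33.4 and 32.9 CPM in enzalutamide libraries 1 to 5. The groups overlapped, with the 2 highest values in DMSO. The means were 35.4 ± 1.81 and 34.1 ± 1.15 CPM (log2 fold change -0.06, SE 0.0471, edgeR adjusted p = 0.394). The 95% interval, 0.903-fold to 1.03-fold, leaves room for a fall of about the size of the rise of Abat but not for one of the size of the rise of Gabbr1. The other enzyme genes of the molybdenum cofactor, Mocs1, Mocs2 and Mocs3, did not pass either (log2 fold changes of -0.04, -0.12 and 0.08, adjusted p = 0.682, 0.107 and 0.642).

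The wider pathway was taken from lists arranged by role, which held 97 further genes. Of these 1, Kctd12, was not analysed here, 12 had 0 counts in every library, 21 had too few and 63 were tested. At an adjusted p under 0.05 in edgeR's test 17 were higher and 8 lower, which is 39.7% of those tested beside 37.8% of all genes. Their median log2 fold change was 0.01, as was that of all genes. In 20 of them the groups did not overlap, as in 26.8% of all genes tested. The share called in the wider pathway was thus close to the background. By role it was 0.0% for GABA-A subunits, 22.2% for scaffold genes, 33.3% for GABA-B partners and 40.0% for side routes. It was 50.0% for the chloride gradient, 66.7% for transport and 70.0% for glutamate supply. Each share rests on 4 to 18 tested genes and stands beside the same 37.8% of all genes (19.0% higher, 18.8% lower). Without enzalutamide library 2 the lower genes numbered 14, the additional ones being Gabarapl2, Ubqln1, Mocs2, Gnb2, Kcnj3 and Odc1. Of these Kcnj3 had too few counts for the main test. It entered this fit only through its DMSO counts, 9 to 18 per library, so its call cannot serve as evidence of a fall. In the same fit Rgs7 and Wnk1 newly passed as higher. Of the calls over all genes 50.3% were higher, and 60.7% with libraries scaled to total counts alone, where the 3 members that rose still passed. With per-library trends in GC content and length removed 44.4% of calls were higher, 2 members passed, Abat not among them, and 12 genes of the wider pathway were lower in place of 8.

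**Figure D4:**
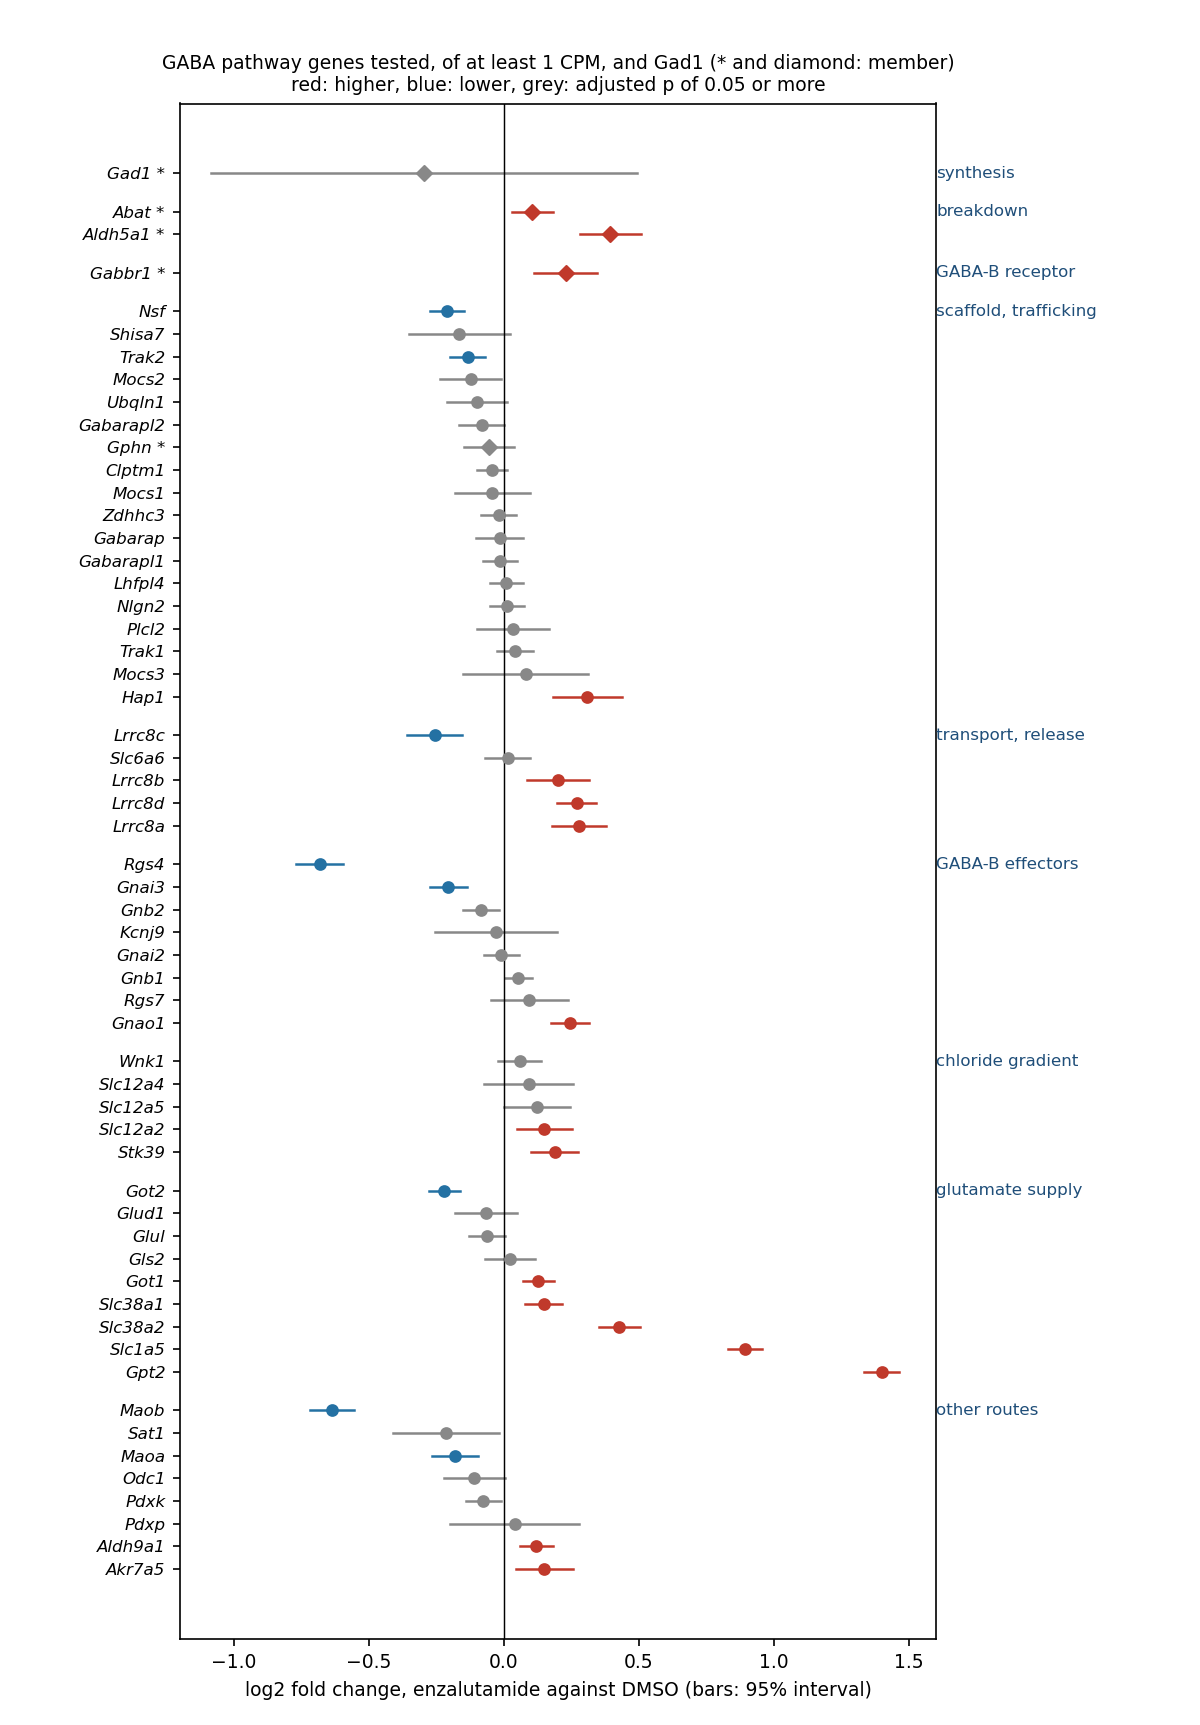
Log2 fold change of enzalutamide against DMSO with its 95% interval for tested GABA pathway genes of at least 1 CPM in 1 group, a few left out, and for Gad1, grouped by role; diamonds and stars mark members, red genes passed as higher, blue as lower, and grey genes did not pass. Among members Aldh5a1, Gabbr1 and Abat are red, at 0.39, 0.23 and 0.11, and the largest change plotted is that of Gpt2 at 1.40.

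Genes that supply glutamate, the precursor of GABA, held the largest changes that passed, with 6 of 10 tested higher and 1 lower (median log2 fold change 0.14). Gpt2, the mitochondrial alanine transaminase, went from 79.4 ± 3.16 to 209 ± 3.0 CPM, a rise of 1.40 on the log2 scale (SE 0.0331, edgeR adjusted p = 6.09e-15). The glutamine transporter genes Slc1a5 and Slc38a2 rose by 0.89 and 0.43 on the log2 scale, whereas Got2, the mitochondrial aspartate transaminase, fell by 0.22. Glutamine synthetase (Glul) and glutamate dehydrogenase (Glud1) did not pass, at -0.06 and -0.07 with adjusted p = 0.155 and 0.402. These lists were written with earlier results on amino acid genes known.

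Of 12 genes for transport and release of GABA 6 could be tested, of which 3 were higher and 1 lower. Slc32a1, the vesicular GABA transporter, had 21 counts over the 10 libraries. Slc6a6, the taurine transporter, which also carries GABA, was at 50.6 ± 1.31 and 51.1 ± 2.38 CPM (log2 fold change 0.01, edgeR adjusted p = 0.843). Slc6a13, a GABA transporter outside neurons, had a DMSO mean of 0.272 ± 0.0998 CPM and an enzalutamide mean of 0.125 ± 0.0343 CPM and did not pass (adjusted p = 0.062). The changes were among the subunits of volume-regulated anion channels, through which β cells have been reported to release GABA. Lrrc8a, the subunit these channels require, and the partner subunit genes Lrrc8b and Lrrc8d rose by 0.28, 0.20 and 0.27 on the log2 scale, and Lrrc8c fell by 0.26.

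Among 18 tested scaffold, trafficking and assembly genes other than Gphn, 2 were higher and 2 lower. Hap1, a trafficking partner of the receptors, rose from 19.4 ± 1.35 to 24 ± 1.98 CPM (log2 fold change 0.31, edgeR adjusted p = 0.00122). Nsf and Trak2, also of vesicle and organelle transport, fell by 0.21 and 0.14. Gabarapl1, an autophagy protein of the family of the GABA-A receptor-associated protein, was the most abundant of this list at 260 ± 11.8 CPM in DMSO, and its log2 fold change was -0.02 (adjusted p = 0.746), with the opposite sign when scaled to total counts (0.02).

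Of 9 tested partners and effectors of GABA-B receptors 1 was higher and 2 lower. Gnao1, a G protein α subunit abundant in neurons and endocrine cells, went from 358 ± 13.3 to 424 ± 20 CPM, a rise of 0.25 on the log2 scale (SE 0.0359, edgeR adjusted p = 3.53e-05). Gnai3, an inhibitory α subunit, and Rgs4, which speeds the turning off of G proteins, fell by 0.21 and 0.68, and Gnb1, the most abundant gene of the list, had 0.05 (adjusted p = 0.11, 0.00844 when scaled to total counts, 0.027 after removal of the GC and length trends). Of the potassium channel genes that GABA-B opens in neurons, Kcnj9 was at 5.56 ± 0.49 CPM in DMSO and did not pass (adjusted p = 0.872). Kcnj3 had 70 counts over the DMSO libraries and 10 over the enzalutamide libraries, too few for the main test; it did not pass in a fit without the filter (adjusted p = 0.0724).

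Of 6 tested genes of the chloride gradient, on which the direction of a GABA-A current depends, 3 were higher and 0 lower. Stk39, a kinase that controls chloride carriers, and Slc12a2, the sodium potassium chloride importer, rose by 0.19 and 0.15. Slc12a2 passed at an adjusted p of 0.0324 and did not when DMSO library 1, 3 or 4, or enzalutamide library 3, 4 or 5, was left out, at up to 0.0968, or without the filter on low counts (0.0706). Slc12a5, the exporter best known from neurons, was at 20.2 ± 0.842 and 22 ± 1.9 CPM (log2 fold change 0.12, adjusted p = 0.137). Wnk1, a kinase of the same control path and the most abundant gene of the list, had 0.06 (adjusted p = 0.292, and 0.0235 without enzalutamide library 2).

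Routes to GABA that bypass the decarboxylases start from putrescine. Of 10 tested genes of these and other side routes 2 were higher and 2 lower. Aldh9a1, which makes GABA from its aldehyde, rose by 0.12 (adjusted p = 0.00623). The monoamine oxidase genes Maob and Maoa fell by 0.64 and 0.18. Odc1, which makes putrescine and was the most abundant gene of the list, had -0.11 (adjusted p = 0.158, and 0.0391 without enzalutamide library 2). Akr7a5, an aldehyde reductase that acts on succinic semialdehyde, had 0.15 (adjusted p = 0.0372) and did not pass in 7 of 10 fits that left out 1 library, namely all but those that left out DMSO library 2 or 4, or the fifth enzalutamide library. With GC and length trends removed its value was 0.06 (adjusted p = 0.417).

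For each member that passed, the genes with the most similar pattern were found among 10195 others of at least 5 CPM, by the root mean square difference over the 10 libraries between log2 CPM values, each taken relative to its own DMSO mean. For Aldh5a1 they were Brdt (0.0485), Psme1 (0.0567) and Il3ra (0.0613). For Gabbr1 they were Ktn1 (0.0393), 4930402H24Rik (0.0445) and Osbpl1a (0.0451), and for Abat Vac14 (0.0285), Hbs1l (0.0311) and Erlin2 (0.0323). Their log2 fold changes were 0.39 to 0.41 for the genes like Aldh5a1, 0.20 to 0.22 for those like Gabbr1 and 0.09 to 0.10 for those like Abat. Of these Hbs1l and Erlin2 did not pass the test. The likeness took in the enzalutamide libraries, so similar fold changes follow from how these genes were picked.

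The libraries were deep, and the cells carried α cell transcripts. Totals were between 59557697 and 68603842 counts, and the pair of replicates that differed most was enzalutamide libraries 2 and 5 (chi-square of 37.45 per degree of freedom, beside 9.187 for the closest pair). Of 10 α cell markers 9 were tested, of which 5 fell, 0 rose and 4 did not pass in enzalutamide. The summed level of the list was 19486 to 20729 CPM in DMSO and 11521 to 12821 CPM in enzalutamide. Most of that sum was 1 gene in both groups, so it does not stand for the list as a whole. Gc had 0 counts. Of 8 β cell markers 3, Ins1, Pdx1 and Ucn3, had 0 counts in every library and 0 of 3 tested passed. Their summed level was 44.3 to 49 CPM in DMSO and 45.8 to 49.5 CPM in enzalutamide. Nearly all of that sum was 1 gene, Nkx6-1, with means of 45.2 CPM in DMSO and 46.2 CPM in enzalutamide. Beside it Ins2 had means of 0.626 and 0.409 CPM and Mafa of 1.03 and 0.989 CPM. Of 4 markers of δ and PP cells Sst and Ppy were at 0 and the 1 tested did not pass, at 0.547 to 1.06 and 0.238 to 0.776 CPM in all. Of 7 neuron markers Slc17a6 was at 0, while the neurofilament genes Nefm and Nefl were abundant and fell, so that the sum of the list was 1740 to 1768 and 1024 to 1075 CPM. Of 6 fibroblast and blood cell markers 1 of 2 tested fell, Ptprc was at 0 and the sum was 1.53 to 2.58 and 0.96 to 2.83 CPM. The part of these markers in the changes of the members was not tested. In RNA from pooled cells, a change in the share of cells that hold a transcript and a change in its amount per cell cannot be told apart.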

How the data were processed

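Whole-number counts per gene were deposited by the authors for 33212 genes in 10 libraries, with a second table of normalized values. Per the submitters' processing notes HISAT2, StringTie, DESeq2 and mm10 were used, but the sources used here do not give their versions, the strand setting, the treatment of reads with several matches, or whether a count is a read or an estimate. The authors' normalized table (20240 genes) holds signal values, and for 20039 genes matched by symbol these deposited values were the count divided by a size factor, within 0.01.

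Counts were scaled by edgeR 4.0.16 (TMM factors, R 4.3.3), filtered with filterByExpr at its defaults to 14156 genes, and tested with the quasi-likelihood test at a Benjamini-Hochberg adjusted p of 0.05 over all genes. limma 3.58.1 and DESeq2 1.42.0 served in alternatives. The biological coefficient of variation was 8.39%. Intervals are 95%, and the limit for a count of 0 is 3 counts per library. Exon lengths came from GENCODE M21 on GRCm38, which matched 96.5% of gene IDs. The pipeline was tested on simulated data. Likeness used log2(CPM + 0.1). Libraries were grouped by their treatment label. Named were all members and, in each list, up to 4 genes that passed, lowest adjusted p first, and the most abundant gene, with the 3 most similar genes for each member that passed; other genes were named after their values were seen. The members and lists were chosen with earlier results of these data known. Some genes enter the counts over lists and are not reported singly here.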

Additional observations from a re-analysis of the deposited data

Results flagged for a closer look

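Of 69 groups of 5 libraries examined for a library far from the others, 4 held one, and chance marks about 1 in 20 such groups of normally distributed values. That rate does not apply to the DMSO groups of Gabbr2 and Gabra4. A group with counts in a single library and 0 in the others is always flagged. Gabbr2 was at 0.0608 CPM in DMSO library 5 and at 0 in the other DMSO libraries. Gabra4 was at 0.0592 CPM in DMSO library 4 and at 0 in the other DMSO libraries. Slc1a5 was at 182 CPM in enzalutamide library 2, beside 166 to 171 CPM in the other enzalutamide libraries. Maob was at 56.9 CPM in enzalutamide library 5, beside 52.9 to 54.0 CPM in the others.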

How the results depend on the processing

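Over 22 alternatives and the 32 genes followed, 651 of 703 gene values kept their direction and their side of the threshold, 45 no longer passed, 5 newly passed and 2 changed sign. Both sign changes were of Gabarapl1, which passed in no alternative: its log2 fold change of -0.02 became 0.02 with libraries scaled to total counts and ran from -0.03 to 0.01 when 1 library was left out; the cause was not tested. Against a minimum change of 1.2-fold, 926 genes passed (524 higher, 402 lower), with 0 members higher and 3 higher and 2 lower genes of the wider pathway, by construction of that test. Without 1 library the lower pathway genes numbered 8 to 14, the highest without enzalutamide library 2; the cause was not tested. With the replicate block the log2 difference of the Abat to Aldh5a1 ratio was -0.29 with an exact sign-flip p of 0.0625, the smallest that 5 pairs can give. The replicate numbers did not pair the libraries: same-numbered libraries correlated at -0.034 to 0.073, and 1 of 5 DMSO libraries was closest to its own number. The block gave 5296 calls over all genes, beside 5358 without it. Depth limits Gad1, Gad2, Gabbr2 and Gabra4.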
